A study of Homo sapiens
Mus musculus and Mus musculus and Homo sapiens with 3 samples.

Results

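The genes described here are the 38 protein-coding HOX genes named for this account, which lie in 4 genomic clusters: 10 in HOXA, 10 in HOXB, 9 in HOXC and 9 in HOXD. They are named by family, with no threshold on a measured value. All 38 were listed in every file, out of 15472 gene symbols that the 4 files had in common. Mouse symbols are written in capitals like the human ones.

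HOX genes encode homeodomain transcription factors that give cells their position along the head-to-tail axis. Within a cluster the genes are numbered by paralog group, and low numbers are switched on early and towards the hindbrain, high numbers later and towards the tail. In the embryo, paralogs 1 to 3 are hindbrain genes, paralogs 4 and 5 mark the posterior hindbrain and neck, paralogs 6 to 8 the forelimb level, paralog 9 the thoracic cord, and paralogs 10 to 13 the lumbar and sacral levels. In spinal motor neurons HOX proteins, together with PBX and MEIS cofactors, set the motor column and the muscle a neuron will serve.

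The study differentiated human and mouse pluripotent stem cells into motor neurons in vitro, as embryoid bodies (floating cell aggregates), and sampled them every 24 h (mouse) or 48 h (human) for droplet-based 3' single-cell RNA sequencing. All cells carried a lentiviral GFP driven by CAGGS with a short barcode, and every library was sorted for GFP-positive cells after papain and DNase I dissociation, so untransduced cells are not represented. A mixed library, deposited as separate files by species, gave human replicate 1, of the iPS line NCRM1, and mouse replicate 1, of C57BL/6 ES cells. Human replicate 2, of RUES1 (labelled iPS), and mouse replicate 2, again of C57BL/6 ES cells, each had their own library. The files give no sampling day for a cell, so every class below pools the days. The human replicates are different lines and the labels do not say that the mouse replicates were separate cultures. In class comparisons p-values therefore measure only how much class differences vary among these 4 library parts. In the species comparison they measure only the spread between these parts.

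After filtering, 2323 cells of human replicate 1, 1805 of human replicate 2, 1811 of mouse replicate 1 and 2674 of mouse replicate 2 were used, with medians of 11185, 16758, 19178 and 29210.5 UMIs (counted RNA molecules) per cell. The species files of the mixed library had 60 cell barcodes in common, and these cells were removed. Cells were put into classes by genes outside the HOX clusters. Progenitors had SOX2 and no STMN2, ISL1 or MNX1; motor neurons had at least 3 UMIs of STMN2 with ISL1 or MNX1; other neurons had STMN2 without ISL1 and MNX1; and COL1A2-positive cells had at least 3 UMIs of COL1A2 and fewer of STMN2. In the order human 1, human 2, mouse 1, mouse 2 there were 1202, 795, 1117 and 1302 progenitors, 259, 395, 129 and 328 motor neurons, 301, 133, 136 and 195 other neurons, and 143, 224, 8 and 100 COL1A2-positive cells.

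Markers not used in the gates show where the class names are loose. Summed over SLC18A3, LHX3, SLC5A7, PRPH, CHAT and ISL2, motor neuron markers stood at 433 to 989 CPM (UMIs of a gene per 1000000 UMIs of the class) in motor neurons and 2.62 to 16.6 CPM in progenitors. The human other neurons had nearly as much of them as the human motor neurons (450 and 421 against 438 and 433 CPM), while the mouse other neurons had less (117 and 241 against 438 and 989 CPM). The human class called other neurons therefore holds cells with motor neuron markers, and it is named by its gate only. The 8 COL1A2-positive cells of mouse replicate 1 had 10.3 CPM of COL1A1 against 195 to 648 CPM in the other parts and were too few for any comparison.

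Of the 38 genes, 31 had at least 1 UMI in human replicate 1, 30 in human replicate 2, 28 in mouse replicate 1 and 35 in mouse replicate 2. In all 4 parts 27 were detected, and HOXC12 and HOXD12 had no UMI anywhere. The 12 genes of paralogs 10 to 13, the lumbar and sacral end of the clusters, reached at most 1.06 CPM in progenitors or neurons of any part. Their highest level anywhere was HOXA10 at 4.40 CPM in the COL1A2-positive cells of mouse replicate 2, where HOXD11 stood at 3.52 CPM and HOXD10 at 2.64 CPM. For comparison of genes with one another, the 3' protocol counts 1 tag per molecule and needs no length correction, but a gene's CPM depends on which 3' ends its annotation holds.

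**Figure D1:**
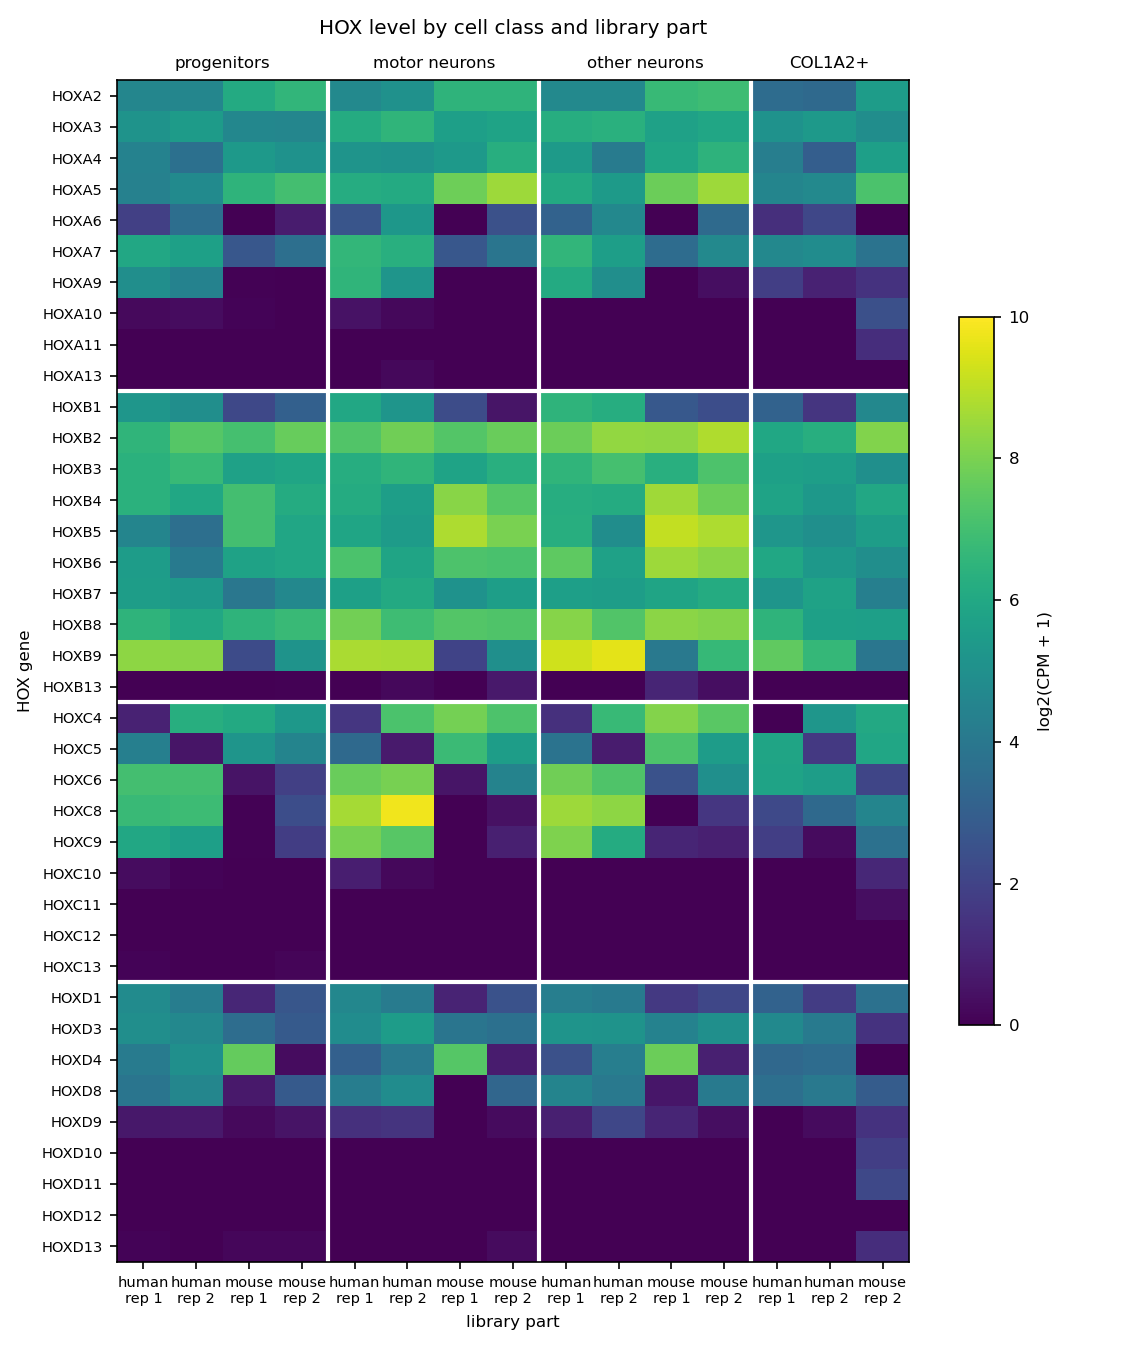
Level of each of the 38 HOX genes, as log2(CPM + 1), in the summed cells of each class (columns, grouped by class) and library part; white lines separate clusters A to D. The HOXC6, HOXC8, HOXC9 and HOXB9 rows are bright in human neurons and dark in mouse replicate 1, while HOXD4 is bright in mouse replicate 1 only, and the rows of paralogs 10 to 13 are near 0 in progenitors and neurons. COL1A2-positive cells of mouse replicate 1 are left out.

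In progenitors, the forelimb and thoracic genes HOXA7, HOXA9, HOXB7, HOXB9, HOXC6, HOXC8 and HOXC9 were called higher in human than in mouse, and the neck-level genes HOXA5 and HOXB5 lower. The hindbrain genes HOXA3, HOXB1, HOXD1 and HOXD3 were also called higher in human, and HOXA2 lower. HOXB2 and HOXB3, the neck-level genes HOXA4, HOXB4, HOXC4, HOXC5 and HOXD4, and HOXA6, HOXB6, HOXB8, HOXD8 and HOXD9 were not called. HOXC4, HOXC5 and HOXD4 differed strongly between the files of 1 species, with standard errors of 1.90, 1.67 and 2.35 on the log2 scale. HOXB9, a paralog 9 gene of the thoracic cord, was the highest HOX gene of human progenitors, with 311 and 304 CPM in human replicates 1 and 2, and stood at 3.90 and 34.2 CPM in mouse replicates 1 and 2. HOXC6, which marks motor neurons of the forelimb level, had 130 and 128 CPM in human against 0.433 and 2.69 CPM in mouse. HOXC8, which patterns motor pools of the lower forelimb level, had 108 and 114 CPM against 0.0394 and 4.15 CPM. For each of the 3 genes both human values lay above both mouse values, and the mouse replicates themselves lay apart, replicate 2 being the higher.

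HOXC9, the gene that sets thoracic motor neuron identity, followed the same order, with 62.6 and 48.7 CPM in human progenitors and 0.0394 and 2.49 CPM in mouse. HOXA9, the HOXA member of that paralog group, had 30.0 and 20.7 CPM in human cells and rested on 1 UMI in each mouse part. Its human to mouse ratio, over both parts summed, was 887, with a 95% interval of 245 to 7337 that covers counting error only. HOXA7 was at 62.6 and 50.0 CPM in human against 5.55 and 11.5 CPM in mouse. HOXB7 was closer between species, at 46.5 and 41.0 against 14.4 and 24.5 CPM. HOXB8 and HOXB6 did not keep this order: HOXB8 had 90.0 and 62.4 CPM in human against 89.9 and 109 CPM in mouse, and HOXB6 had 44.8 and 16.1 against 52.9 and 59.6 CPM.

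Among neck-level and hindbrain genes the order varied from gene to gene. HOXA5, which patterns cervical motor neurons including those of the phrenic column, had 20.2 and 26.8 CPM in human progenitors and 90.2 and 127 CPM in mouse. HOXB5 had 22.5 and 11.7 against 128 and 59.9 CPM. HOXA2, a hindbrain gene, had 23.1 and 23.2 against 69.0 and 93.7 CPM. In these 3 genes both mouse parts stood above both human parts. HOXB2, a hindbrain gene with one of the highest levels in both species, ranged over 91.8 and 164 CPM in human against 131 and 203 CPM in mouse, so the species overlapped. HOXB1 was higher in human, with 36.9 and 30.0 CPM against 3.50 and 7.47 CPM, and so was HOXA3, with 34.5 and 43.9 against 23.8 and 22.9 CPM.

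The test of human minus mouse in progenitors (edgeR's quasi-likelihood test over all 11943 shared genes that passed the count filter, Benjamini-Hochberg adjusted, called at an adjusted p below 0.05) covered 27 HOX genes, the rest being too low. It called 11 higher in human and 3 lower, beside 31.6% of all genes tested in either direction. The median log2 difference was 0.81 over the 27 genes and 0.15 over all genes. The 11 were HOXA3, HOXA7, HOXA9, HOXB1, HOXB7, HOXB9, HOXC6, HOXC8, HOXC9, HOXD1 and HOXD3, and the 3 were HOXA2, HOXA5 and HOXB5. On the log2 scale the difference was 6.36 ± 1.22 (SE) for HOXC6 (edgeR adjusted p = 0.0031), 5.73 ± 1.21 for HOXC8 (edgeR adjusted p = 0.0051) and -2.23 ± 0.34 for HOXA5 (edgeR adjusted p = 0.00099). HOXD1 stood at 27.6 and 17.7 CPM in human against 1.10 and 5.31 CPM in mouse, and HOXD3 at 30.1 and 24.3 against 10.9 and 6.12 CPM. Species, genome annotation and line cannot be told apart in this contrast. Its fit also took the class sums of a library part as independent, so its p-values overstate the number of independent parts. Without human replicate 1 the genes called higher in human were HOXA9 and HOXC6, and more HOX genes were called lower than with it. Fewer of all genes were called without it, and HOXA3 and HOXB1 lost the call with any part left out.

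Added up by paralog group, human progenitors drew 28.6% and 25.9% of their HOX UMIs from paralogs 9 to 13, and mouse progenitors 0.382% and 3.73%. Paralogs 4 and 5 made up 12.9% and 15.2% in human and 59.9% and 35.0% in mouse. The mean paralog number, each HOX UMI counted by the number of its gene, was 6.15 and 5.80 in human progenitors and 4.27 and 4.39 in mouse. The difference in means was 1.65, larger than the spread within either species (SD 0.252 in human and 0.084 in mouse, n = 2 each). The exact two-sided permutation test gave p = 0.333, the smallest that 2 parts against 2 allow. Weighted by log2(CPM + 1) of each gene in place of its UMIs, the difference was 0.68. HOXB9 alone carried most of the share of paralogs 9 to 13: without it, human progenitors kept 8.50% and 6.14%, and mouse 0.0414% and 0.336%.

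**Figure D2:**
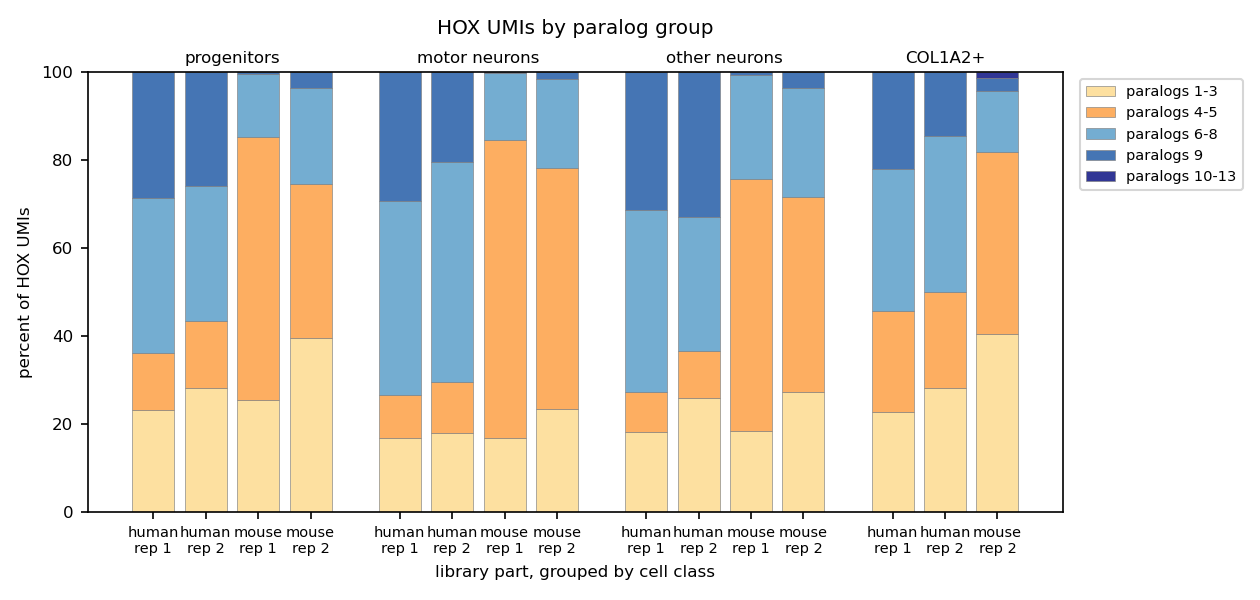
Percent of HOX UMIs (vertical axis) from paralog groups 1 to 3, 4 and 5, 6 to 8, 9, and 10 to 13, stacked to 100 for each library part and grouped by cell class. Paralog 9 fills 14.7% to 33.1% of each human bar and at most 3.71% of each mouse bar, while paralogs 4 and 5 are the largest fraction in most mouse bars.

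By cluster, HOXB gave the largest share in all progenitors, at 57.3% and 55.0% of HOX UMIs in human and 52.6% and 62.4% in mouse. HOXC gave 22.6% and 25.4% in human progenitors against 9.03% and 7.02% in mouse. In human motor neurons HOXC stood at 33.3% and 47.6%, against 15.9% and 11.3% in mouse motor neurons. Across the 38 genes, Spearman's rho of CPM in progenitors was 0.92 between the human parts, 0.88 between the mouse parts and 0.62 to 0.73 between species; genes are not independent replicates, and the human 1 and mouse 1 parts come from 1 library.

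HOX UMIs made up a larger fraction of the RNA in neurons than in progenitors. The 38 genes summed to 1414 and 1449 CPM in human progenitors and 2620 and 3029 CPM in human motor neurons. In mouse they summed to 1145 and 1003 CPM in progenitors and 2233 and 1917 CPM in motor neurons. Every motor neuron value lay above every progenitor value. Motor neurons also had fewer UMIs per cell than progenitors in all 4 parts (median 9001 against 12531 in human replicate 1, and 25433.5 against 34805.5 in mouse replicate 2), so a higher CPM is a larger share of a smaller total.

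In human, 14 of the 27 genes tested were called higher in motor neurons than in progenitors and 2 lower, where 42.5% of all genes were called (20% higher, 22.5% lower). The median log2 change was 0.54 over the HOX genes and -0.03 over all genes. The change was largest for HOXC8, which went from 108 and 114 CPM in progenitors to 401 and 882 CPM in motor neurons of replicates 1 and 2, a log2 change of 2.36 ± 0.28 (edgeR adjusted p = 3.6e-05). HOXC9 went from 62.6 and 48.7 to 247 and 170 CPM (1.78 ± 0.35, edgeR adjusted p = 0.0013). These thoracic and forelimb genes were higher in the motor neurons of both lines, with no overlap between classes. HOXA9 rose from 30.0 and 20.7 to 93.4 and 35.7 CPM and HOXC6 from 130 and 128 to 211 and 245 CPM. HOXB9, already the highest gene in progenitors, was at 427 and 413 CPM in motor neurons and was not called (0.34 ± 0.23, edgeR adjusted p = 0.25).

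Genes nearer the anterior end moved too. HOXA5 rose from 20.2 and 26.8 to 72.0 and 68.8 CPM, a log2 change of 1.48 ± 0.19 (edgeR adjusted p = 5.6e-05). HOXB5 (22.5 and 11.7 to 57.4 and 44.4 CPM), HOXB6 (44.8 and 16.1 to 142 and 56.8 CPM) and HOXB8 (90.0 and 62.4 to 232 and 118 CPM) also rose. HOXA3, HOXA4, HOXA6, HOXA7, HOXB2 and HOXC4 completed the 14. The 2 genes called lower were HOXB4, a neck-level gene (83.3 and 61.0 to 69.9 and 47.7 CPM), and HOXD4 (16.9 and 30.7 to 7.28 and 15.4 CPM). The HOXB4 call (-0.42, edgeR adjusted p = 0.037) was kept in 3 of 10 alternatives and that of HOXA7 in 4 of 10, and both were lost with the DESeq2 test and without either human replicate. HOXB3, HOXC5 and HOXD1 had negative changes that did not pass (-0.29, -0.92 and -0.26). Fewer HOX genes were called without human replicate 1 or without human replicate 2, and calls over all genes fell as well. When the library part was not a term of the fit, 2 HOX genes were called (HOXA3 and HOXA5). In that fit calls over all genes fell from 5080 to 1530.

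In mouse, 11 of 27 were called higher in motor neurons and 2 lower, where 52.7% of all genes were called (25.7% higher, 26.9% lower). The HOX median log2 change was 0.12 and that of all genes -0.03. Neck-level genes were among those with the smallest adjusted p. HOXC4 went from 66.3 and 39.2 CPM in progenitors of replicates 1 and 2 to 243 and 148 CPM in motor neurons (1.67 ± 0.15, edgeR adjusted p = 2.5e-06). HOXB5 went from 128 and 59.9 to 441 and 250 CPM (1.70 ± 0.23, edgeR adjusted p = 5.6e-05). HOXB4 rose from 127 and 70.0 to 297 and 162 CPM and HOXA5 from 90.2 and 127 to 219 and 369 CPM. In all 4 genes both motor neuron values stood above both progenitor values. HOXC5, HOXA3, HOXA6, HOXB6, HOXB7, HOXB8 and HOXC6 were the others called higher, and the HOXB8 call was kept in 3 of 10 alternatives.

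Several of the mouse calls rested on replicate 2. HOXC6 was at 0.433 and 2.69 CPM in mouse progenitors and 0.498 and 21.1 CPM in motor neurons, so the rise (2.55 ± 0.34) was a rise of replicate 2; without that replicate the log2 change was -0.02. HOXA6 had no UMI in mouse replicate 1 and 0.673 against 4.61 CPM in replicate 2. HOXC8, called lower, had 185 UMIs in progenitors and 3 in motor neurons of replicate 2, and 1 and 0 in replicate 1. Its progenitor to motor neuron ratio in replicate 2 was 11.7, with a counting interval of 3.94 to 57.3. HOXB1, the other gene called lower, went from 3.50 and 7.47 to 3.99 and 0.472 CPM, a fall in replicate 2 only. Fewer HOX genes were called without mouse replicate 2, and calls over all genes fell as well. A fit without a term for the library part called 2 HOX genes (HOXA3 and HOXA5), while calls over all genes fell from 6288 to 2454.

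**Figure D3:**
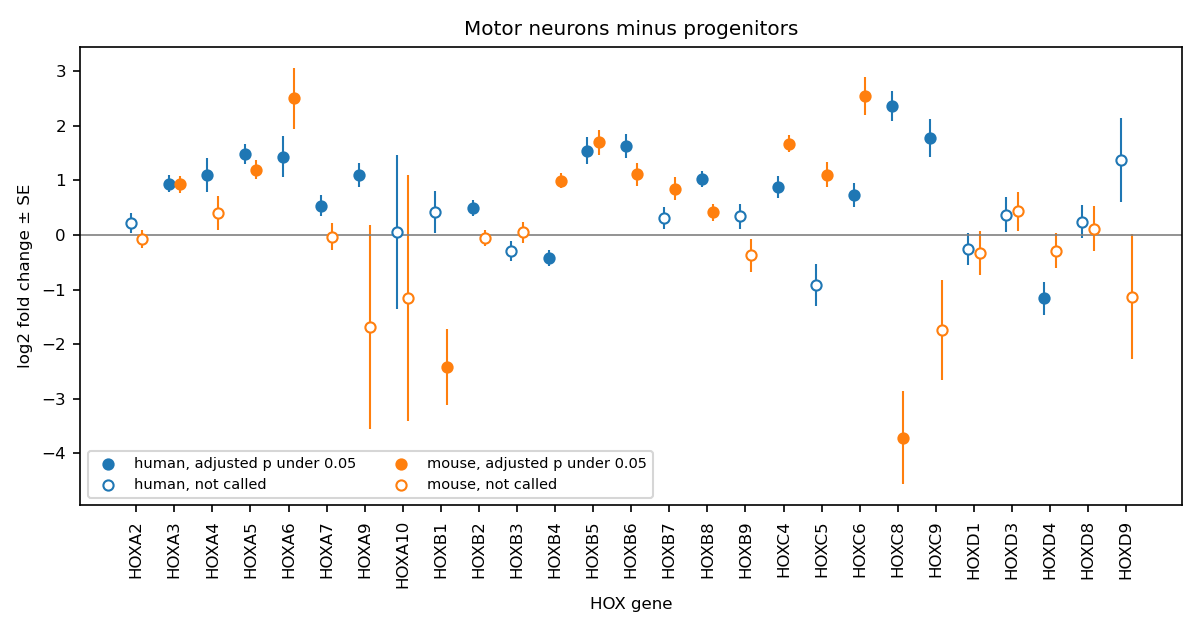
Log2 fold change of motor neurons minus progenitors with its standard error for the 27 tested HOX genes, in cluster order, for human (blue) and mouse (orange); filled points passed an adjusted p of 0.05 in edgeR. HOXC8 and HOXC9 lie above 0 in human and below 0 in mouse, HOXB4 lies below 0 in human and above it in mouse, and HOXA3, HOXA5 and HOXB5 lie close together.

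The difference between the species in this change was itself tested. It was called for 7 of the 27 genes, 3 higher and 4 lower in human, where 16.6% of all genes were called (7.22% higher, 9.35% lower). HOXC8 (6.08 ± 0.82, edgeR adjusted p = 0.0006), HOXC9 (3.52 ± 0.93, edgeR adjusted p = 0.023) and HOXB1 (2.83 ± 0.80, edgeR adjusted p = 0.032) changed more positively in human. HOXB4 (-1.41 ± 0.20, edgeR adjusted p = 0.00087), HOXC5 (-2.02 ± 0.44), HOXC6 (-1.81 ± 0.40) and HOXC4 (-0.79 ± 0.24) changed more positively in mouse. HOXB4 was at 47.7 CPM or more in every progenitor and motor neuron sum, and it kept its call with each library part left out in turn. HOXC8 and HOXC9 had few mouse UMIs, and both lost the call without mouse replicate 2, as did HOXB1 and HOXC6. HOXC4 lost its call with any 1 part left out and with the DESeq2 test, and kept it in 2 of 10 alternatives. Fewer of the 27 were called without human replicate 1, human replicate 2 or mouse replicate 2, and so were fewer of all genes.

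The mean paralog number was higher in motor neurons than in progenitors in all 4 parts, going from 6.15 to 6.66 and from 5.80 to 6.49 in human, and from 4.27 to 4.54 and from 4.39 to 4.64 in mouse. The mean shift was 0.60 in human and 0.26 in mouse, but 0.16 and 0.020 when genes were weighted by log2(CPM + 1) in place of UMIs. In human it went with a larger share of paralogs 6 to 8, which went from 35.2% and 30.8% of HOX UMIs to 44.2% and 50.0%, while paralogs 1 to 3 went from 23.2% and 28.2% to 16.8% and 17.9%. Paralog 9 went from 28.6% and 25.8% to 29.3% and 20.5%, so it fell in share in human replicate 2. In mouse the share of paralogs 4 and 5 went from 59.9% and 35.0% to 67.8% and 54.9%, and that of paralogs 1 to 3 from 25.4% and 39.5% to 16.7% and 23.4%. The largest share was thus that of paralogs 6 to 8 in both human motor neuron sums and that of paralogs 4 and 5 in both mouse ones, while in progenitors of mouse replicate 2 it was that of paralogs 1 to 3.

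Other neurons, compared with motor neurons, showed no called HOX gene in human, where 0.519% of all genes were called (0.469% higher, 0.0502% lower); 4 of the 27 had an unadjusted p below 0.05 with edgeR, and DESeq2 also called 0. As given above, the human gate kept motor neuron markers in this class. Its median UMIs per cell were 7548 and 7828, against 9001 and 15829 in motor neurons. HOXC8 was at 401 and 882 CPM in motor neurons and 373 and 318 CPM in other neurons of the same libraries (-0.89 ± 0.27, edgeR adjusted p = 0.27), and HOXB9 at 427 and 413 against 615 and 776 CPM. In human replicate 1 the classes were thus alike in HOXC8, and in replicate 2 they lay apart. Leaving out human replicate 1 gave 1 called gene, which was lower.

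In mouse 4 HOX genes were higher in other neurons, all of the HOXB cluster, where 2.04% of all genes were called (1.2% higher, 0.846% lower). HOXB2 was at 160 and 208 CPM in motor neurons and 322 and 453 CPM in other neurons (0.97 ± 0.15, edgeR adjusted p = 0.0048). HOXB6 was at 147 and 137 against 375 and 304 CPM, and HOXB8 at 158 and 151 against 309 and 285 CPM. HOXB9 was at 2.99 and 30.6 against 15.4 and 104 CPM (1.76 ± 0.32, edgeR adjusted p = 0.014). For HOXB2, HOXB6 and HOXB8 both other neuron values lay above both motor neuron values, and for HOXB9 each library showed the difference. HOXA5, at 217 and 367 CPM, and HOXC4, at 278 and 171 CPM, had nearly the levels of motor neurons. The 4 calls were lost when either mouse replicate was left out, and also without a term for the library part. Without that term calls over all genes fell from 244 to 1. The mouse other neurons had 205 and 323 CPM of LHX1, a gene of spinal interneurons and of some motor neurons, against 41.9 and 125 CPM in motor neurons. They also had fewer UMIs per cell (medians 12715 and 16771 against 15507 and 25433.5), and their gate rests on the absence of ISL1 and MNX1 UMIs. The part of cell makeup and of depth in the HOXB difference was not tested.

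COL1A2-positive cells, with 195 and 247 CPM of COL1A1 in human and 648 CPM in mouse replicate 2, also carried this second collagen gene. PAX6, a neural progenitor gene, stood at 3.14 and 0.718 CPM in the human COL1A2-positive cells against 67.8 and 48.1 CPM in progenitors, and at 56.6 CPM in those of mouse replicate 2 against 172 CPM. The 7 progenitor markers (PAX6, HES5, NKX6-1, OLIG2, VIM, SOX1 and NES) together summed to 4654 and 7901 CPM in the human COL1A2-positive cells against 3961 and 6407 CPM in progenitors. Most of that was VIM, an intermediate filament gene of both neural progenitors and mesenchyme (4444 and 7535 against 2649 and 3942 CPM), and the other 6 were lower in the COL1A2-positive cells of both human parts. In human 14 of 27 HOX genes were lower in them than in progenitors and 3 higher, where 18.1% of all genes were called (8.3% higher, 9.8% lower). The HOX median was -1.03 and that of all genes -0.09. HOXC9 stood at 62.6 and 48.7 CPM in progenitors and 2.62 and 0.239 CPM in COL1A2-positive cells (-5.70 ± 0.66, edgeR adjusted p = 8e-05). HOXC8 went from 108 and 114 to 3.66 and 9.82 CPM (-3.98 ± 0.37, edgeR adjusted p = 1.8e-05) and HOXA9 from 30.0 and 20.7 to 2.62 and 0.958 CPM (-3.97 ± 0.37). The 3 genes fell in both lines without overlap.

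HOXB9 was lowered less, from 311 and 304 to 186 and 101 CPM (-1.13 ± 0.24), and it made up nearly all that these cells had of paralogs 9 to 13. Without HOXB9 those paralogs gave 0.769% and 0.241% of their HOX UMIs. HOXC6 (130 and 128 to 54.9 and 46.5 CPM), HOXB1 (36.9 and 30.0 to 7.85 and 1.92 CPM) and HOXA2 (23.1 and 23.2 to 10.5 and 9.58 CPM) also fell, so the fall was not limited to high paralog numbers. The genes called higher were HOXB5 (22.5 and 11.7 to 37.7 and 30.9 CPM), HOXB6 (44.8 and 16.1 to 60.7 and 39.0 CPM) and HOXC5 (18.8 and 0.493 to 56.5 and 2.16 CPM). HOXA5 (20.2 and 26.8 to 22.5 and 25.1 CPM) and HOXB7 (46.5 and 41.0 to 36.1 and 53.9 CPM) had fitted changes near 0. Fewer HOX genes were called without human replicate 2, and fewer of all genes too. A fit without a term for the library part called 2 HOX genes, while calls over all genes fell from 2162 to 363.

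In mouse replicate 2 the COL1A2-positive cells, a single library with no test, differed from its progenitors the other way for posterior HOXC genes. HOXC8 was at 4.15 CPM in progenitors and 22.6 CPM in COL1A2-positive cells, and HOXC9 at 2.49 and 12.3 CPM. Their summed level of KRT8, KRT18, EPCAM and CDH1, markers of epithelium, was 433 CPM against 70.2 CPM in the progenitors, and its part in the HOXC difference was not tested. HOXC6, HOXC8 or HOXC9 was seen in 42 of these 100 cells, and 18 of them had more than 1 of the 3. Those 18 cells held 95 of the 130 UMIs of these genes in the class. In its progenitors 238 of 1302 cells had such a UMI and 40 had more than 1 of the 3 genes. Mouse replicate 1 had only 13 UMIs of the 3 genes among 1117 progenitors, and no progenitor had more than 1 of them.

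In single cells the class and species differences showed in which genes a cell carried. To compare cells of unequal depth, cells with at least 7000 UMIs were thinned at random to 7000, and shallower cells were left out. The smallest shares were kept in human other neurons (170 of 301 and 72 of 133). In human motor neurons 194 of 259 and 327 of 395 were kept. The shares below describe these deeper cells only. A paralog 9 to 13 gene was the most posterior HOX gene seen in 89.3% of 1108 progenitors of human replicate 1 (95% exact interval 87.3 to 91.0) and 87.0% of 684 in human replicate 2. In mouse it was so in 2.01% of 1095 and 19.4% of 1252 progenitors. Motor neurons gave 96.4% and 95.7% in human and 1.61% and 14.1% in mouse. Without thinning, the same progenitors gave 96.4%, 97.8%, 4.93% and 46.8%, so the mouse replicate 2 value in particular grows with depth. Intervals cover counting error only.

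**Figure D4:**
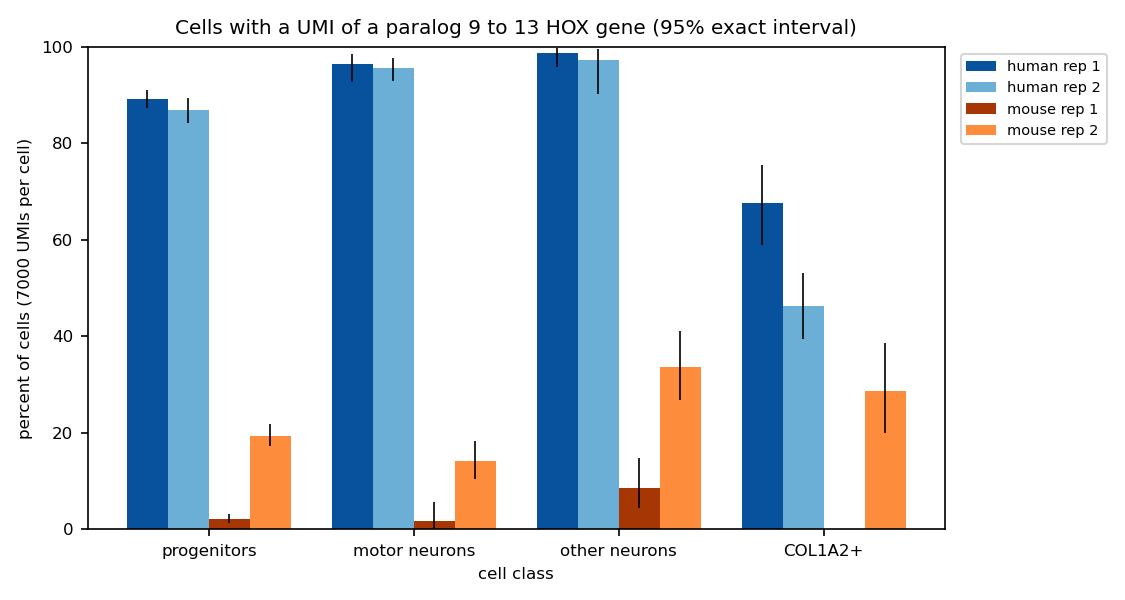
Percent of cells with a UMI of any paralog 9 to 13 HOX gene, by class and library part. Cells with at least 7000 UMIs were thinned to 7000 and shallower cells were left out. Error bars are 95% exact binomial intervals and cover counting error only. Human progenitors and neurons lie between 87.0% and 98.8%, mouse replicate 1 between 1.61% and 8.53%, and mouse replicate 2 between 14.1% and 33.7%; COL1A2-positive cells of mouse replicate 1 are not drawn.

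A thinned cell showed a median of 7 and 6 HOX genes in human progenitors and 5 and 5 in mouse progenitors. Motor neurons showed 9 and 9 in human and 7 and 7 in mouse. HOXC8 was seen in 77.3% and 85.9% of human motor neurons and HOXC9 in 65.5% and 54.7%. In the COL1A2-positive cells of the same libraries, thinned in the same way, HOXC8 was seen in 0% of 133 and 3.77% of 212, and HOXC9 in 0.752% and 0%. HOXC8 was not absent from the class of human replicate 1, which had 3.66 CPM of it unthinned. The 0 of 133 allows up to 2.74% of thinned cells with a UMI (exact interval). Free RNA was not measured, so these shares are not a background level.

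HOXC6, HOXC8 and HOXC9 were also seen in the same human motor neurons. HOXC8 was seen in 82.7% of the HOXC9-positive and 67.2% of the HOXC9-negative motor neurons of replicate 1, and in 91.1% and 79.7% of those in replicate 2. HOXC6 was seen in 70.9% and 58.2% (replicate 1) and 77.7% and 63.5% (replicate 2). Each share was larger among the HOXC9-positive cells, but most of the exact intervals overlap, cells are not replicates, and no test was made. HOXC10, a lumbar gene, was seen in 1 of the 194 thinned motor neurons of replicate 1 and in none of 327 in replicate 2.

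Some genes differed strongly between the files of 1 species. The files list different numbers of gene entries, 32739 and 56832 in human and 27999 and 54087 in mouse, so annotation and library cannot be told apart from these counts alone. In human progenitors 3 of 25 HOX genes with enough UMIs differed at least 4-fold, where 7.34% of all genes did. HOXC4 was at 0.923 CPM in replicate 1 and 77.2 CPM in replicate 2 (83.6-fold), and HOXC5 at 18.8 and 0.493 CPM (38.1-fold). These neighbours thus went in opposite directions. HOXA6 was at 2.71 and 11.2 CPM. In the COL1A2-positive cells the same pair stood at 0 and 37.6 CPM for HOXC4 and 56.5 and 2.16 CPM for HOXC5, so the same order held in a class gated on another gene.

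In the RefSeq annotation of hg38 (GRCh38.p14), HOXC4 spans chromosome 12, 54016888 to 54056030, HOXC5 spans 54016888 to 54035361 and HOXC6 spans 54016888 to 54030823. All of HOXC5 and of HOXC6 therefore lies within the span of the HOXC4 gene. Whole spans were compared, not exons, and how UMIs of the overlapping part were counted is not known here. Between the human lines HOXC6 was level, at 130 and 128 CPM. Whether either file used these gene models is not given in the sources used here, and the part of the overlap in the HOXC4 and HOXC5 values was not tested. Levels of both genes, and their changes between classes, are therefore uncertain.

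In mouse progenitors 8 of 25 HOX genes differed at least 4-fold between the files, where 5.79% of all genes did. HOXD4, a neck-level gene, was at 196 CPM in replicate 1 and 0.247 CPM in replicate 2 (793-fold), and it gave 17.1% of all HOX UMIs of replicate 1 progenitors. In GENCODE M21 (mm10), Hoxd4 spans chromosome 2, 74711929 to 74729160, on the plus strand, and lies wholly within Hoxd3 (74711927 to 74748442). HOXD3 was at 10.9 and 6.12 CPM in the same cells; the part of the overlap in the HOXD4 difference was not tested. The HOXD4 contrast held in motor neurons (161 and 0.709 CPM) and in other neurons (216 and 0.841 CPM).

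The other 7 were all higher in mouse replicate 2: HOXB9 (3.90 and 34.2 CPM), HOXC8, HOXC9, HOXC6, HOXD8 (0.590 and 6.03 CPM), HOXD1 (1.10 and 5.31 CPM) and HOXA6 (0 and 0.673 CPM). Apart from HOXD1 they are genes of paralogs 6 to 9. HOXB8, HOXB7 and HOXA7 of those paralogs differed less, at 89.9 and 109, 14.4 and 24.5, and 5.55 and 11.5 CPM. In HOXB9, HOXC6, HOXC8, HOXC9 and HOXD8 the progenitors of mouse replicate 2 thus stood above those of replicate 1. HOXC4 (66.3 and 39.2 CPM) and HOXC5 (36.5 and 21.8 CPM) went the other way, and paralogs 1 to 3 held 25.4% and 39.5% of HOX UMIs. Markers of epithelium (KRT8, KRT18, EPCAM and CDH1) summed to 4.72 and 70.2 CPM in these progenitors. The part of such cell makeup in the HOX differences was not tested. Leaving HOXC4, HOXC5 and HOXD4 out of the profile altogether gave a mean paralog number difference between human and mouse progenitors of 1.72, against 1.65 with them; this alternative was chosen after seeing the data.

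**Figure D5:**
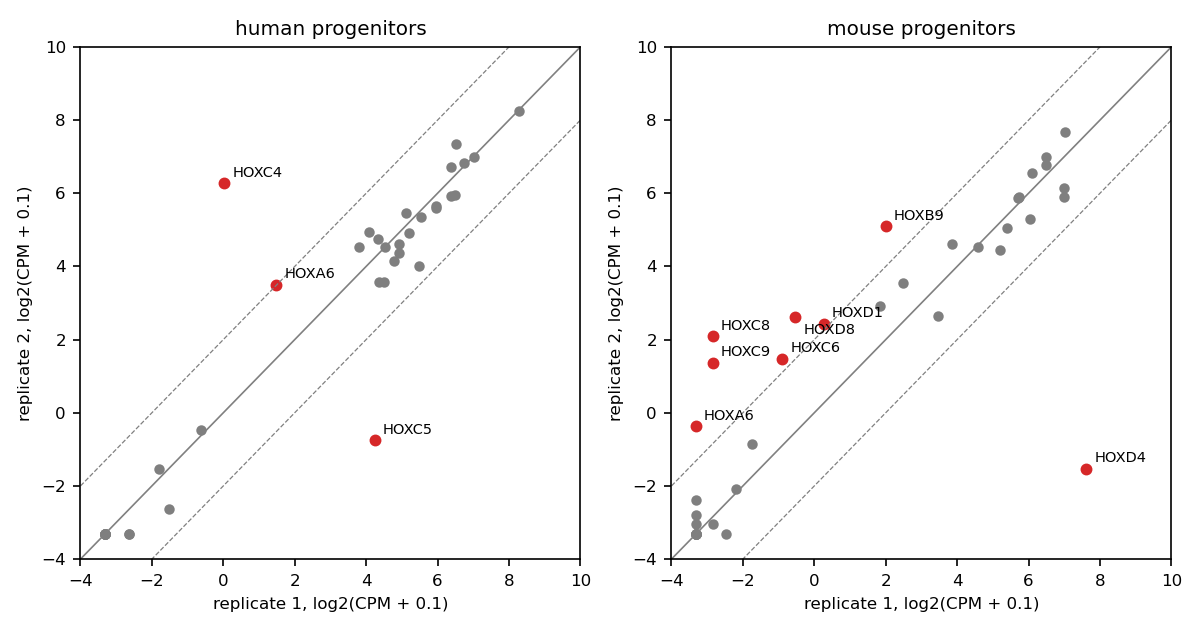
Level of each HOX gene in progenitors of replicate 1 (horizontal) and replicate 2 (vertical), as log2(CPM + 0.1), in human (left) and mouse (right); dashed lines mark 4-fold differences and red points are the 3 human and 8 mouse genes past them. HOXC4 and HOXC5 lie on opposite sides in human, and in mouse HOXD4 lies far to the right while the other 7 lie above the line.

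Among the non-coding entries of the clusters, HOXB-AS3 and HOTAIRM1 were abundant, while many others were at or near 0. Of 17, 19, 8 and 15 such entries listed (human 1, human 2, mouse 1, mouse 2), 10, 9, 6 and 8 reached 20 UMIs. HOXB-AS3 stood at 704 and 1005 CPM in human progenitors, above HOXB9, the highest coding gene, and at 437 and 463 CPM in motor neurons. HOTAIRM1, at the anterior end of HOXA, stood at 245 and 210 CPM in human progenitors and 688 and 468 CPM in motor neurons, and in mouse at 129 and 209 and at 170 and 258 CPM. The mouse antisense entry HOXB5OS had 8.27 and 57.7 CPM in progenitors of replicates 1 and 2, while HOXB5 itself had 128 and 59.9 CPM. HOTAIR, a transcript of the posterior HOXC cluster, had no UMI in any part. Whether counting used strand is not given in the sources used here, and how reads of a gene and its antisense partner were assigned was not tested.

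Genes that act with or above the HOX genes were taken from fixed lists. Of 9 cofactors, 5 were called higher in motor neurons in human and none lower; in mouse 5 were higher and PBX2 lower. Of all genes 20% were called higher in human and 25.7% in mouse. PBX3 rose from 4.80 and 13.9 to 48.5 and 171 CPM in human (3.42 ± 0.32, edgeR adjusted p = 5.8e-06) and from 36.8 and 30.7 to 79.2 and 139.8 CPM in mouse (1.42 ± 0.29), and the species differed in this rise (2.00 ± 0.41, edgeR adjusted p = 0.007). MEIS1, MEIS2 and MEIS3 were also called higher in both species. In human progenitors against mouse, PBX2, PBX3, PBX4 and MEIS1 were called lower, where 12.2% of all genes were.

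Among 10 caudal regulators, 6 could be tested. CDX2, a homeobox gene that acts above trunk HOX genes, was at 37.1 and 17.3 CPM in human progenitors and 0.0394 and 0.135 CPM in mouse (edgeR adjusted p = 0.0005), and CDX1 was at 22.6 and 28.3 against 0.276 and 0.785 CPM. CDX1, CYP26A1, an enzyme that breaks down retinoic acid, and FGF8 were called lower in human motor neurons than in progenitors, and GDF11, a ligand that promotes posterior HOX genes, higher. In mouse GDF11 and NKX1-2 were called higher, the second at no more than 1.00 CPM, and CYP26A1 and CDX1 lower.

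Of 12 motor column and pool genes, 8 were called higher in human motor neurons and 7 in mouse, with 1 lower in mouse, beside the same 20% and 25.7% of all genes called higher and 26.9% lower in mouse. FOXP1, which acts with HOX proteins in limb-level motor neurons, was at 47.3 and 53.3 CPM in human progenitors and 101 and 307 CPM in motor neurons (1.83 ± 0.34, edgeR adjusted p = 0.0009). ALDH1A2, a retinoic acid enzyme of limb-level motor neurons, was at 0 and 21.5 CPM in human motor neurons and 0.498 and 7.44 CPM in mouse, so it was low in both replicates 1. LHX3, of the median motor column, rose in both species and more in mouse (difference -3.57 ± 0.67, edgeR adjusted p = 0.0042). Of 7 hindbrain and branchiovisceral genes, 3 were called higher in human motor neurons and 4 in mouse, against 20% and 25.7% of all genes. PHOX2A, which marks visceral and branchial motor neurons of the hindbrain, was at 0.404 and 0.165 CPM in human motor neurons and 295 and 20.8 CPM in mouse. The forebrain genes SIX3 and OTX2, which lie outside HOX territory, were at or near 0. SIX3 had no UMI in progenitors or motor neurons of any part, and OTX2 reached at most 0.0616 CPM there. Of 10 forebrain and midbrain genes, 5 could be tested. In mouse motor neurons 2 were called higher, against 25.7% of all genes, and in human 0. They were EN1 (3.67 ± 1.12, edgeR adjusted p = 0.021) and SIX6 (2.84 ± 0.86, edgeR adjusted p = 0.020). In progenitors 1 was called lower in human than in mouse, where 12.2% of all genes were.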

How the data were processed

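The deposited files hold counts, the whole-number UMIs of each gene in each cell as the authors made them; per the submitters' processing notes Cell Ranger 3.1.0 was run, and hg38 and mm10 were the genomes. Which annotation each file used, and how empty droplets were removed, is not given in the sources used here. Members and lists of related genes were chosen with earlier results of these data known.

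Cells with under 1000 UMIs, under 500 genes or over 10% mitochondrial UMIs, predicted doublets (Scrublet in scanpy 1.11.5) and the 60 shared barcodes were removed. The files held 2407, 2044, 1881 and 2783 cells with 28577630, 32803173, 38166382 and 83969715 UMIs (human 1, human 2, mouse 1, mouse 2). Symbols were put in capitals, and a second entry of a symbol was added to the first. UMIs were summed per library part and class. Of 16 planned sums, the one with 8 cells was below the minimum of 20, so 15 entered the fit and the planned mouse comparison of COL1A2-positive cells with progenitors was not run.

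Comparisons of classes used 1 joint edgeR 4.0.16 fit (R 4.3.3, TMM, low-count filter, quasi-likelihood test) with the library part as a block. The species comparison used no block, so sums of several classes of the same library part entered it as if independent. Adjusted p-values (Benjamini-Hochberg) cover all 11943 genes tested, and SE is the log2 change divided by the square root of F. The fit was tested on simulated counts. Replicate numbers come from the titles, and only the parts numbered 1 share a library, so the numbers pair no other parts. The alternatives were DESeq2 1.42.0, its size factors, no filter, stricter gates (at least 6 UMIs of STMN2 or COL1A2), gates on cells thinned to 7000 UMIs, block or no block, and leaving out each part.

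Genes are given in full if they reached 20 CPM in a class, were called in a comparison or differed 4-fold between files (at least 20 UMIs in the larger file, a floor of 3 UMIs in the smaller); related genes are limited to 5 per list and comparison, those of smallest adjusted p. Mouse coordinates are from GENCODE M21, human from RefSeq. Some genes of these lists are not reported here.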

Additional observations from a re-analysis of the deposited data

Results flagged for a closer look

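For 7 HOX genes the log2 change from progenitors to motor neurons differed between human and mouse in the test of that difference (edgeR quasi-likelihood, Benjamini-Hochberg adjusted p below 0.05, where 16.6% of all genes passed). The human minus mouse difference was 6.08 for HOXC8, 3.52 for HOXC9 and 2.83 for HOXB1. It was -1.41 for HOXB4, -0.79 for HOXC4 (a call kept in 2 of 10 alternatives), -2.02 for HOXC5 and -1.81 for HOXC6. HOXC4 and HOXC5 are also the genes whose human files differ 83.6-fold and 38.1-fold in progenitors, and HOXC6, HOXC8 and HOXC9 differ at least 4-fold between the mouse files. HOXB4 differs less than 4-fold between the files of either species (83.3 and 61.0 CPM in human, 127 and 70.0 CPM in mouse).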

How the results depend on the processing

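Counts of called HOX genes for motor neurons minus progenitors changed by over 1.5 times in human without a replicate block (2) and when a human part was left out (7 to 17 over all parts left out), and in mouse without the replicate block (2; 9 to 12 with a part left out). Other neurons minus motor neurons gave 0 to 1 in human and 0 to 3 in mouse with a part left out, and 0 in mouse without the replicate block. COL1A2-positive cells minus progenitors in human gave 5 to 18 with a part left out and 2 without the replicate block. The species difference of the motor neuron change gave 4 with the DESeq2 test (1 higher, 3 lower), 0 without the replicate block and 2 to 7 with a part left out. Human minus mouse in progenitors gave 18 with the replicate number as a block and 8 to 14 with a part left out. Without mouse replicate 2, HOXC6 reversed in the mouse motor neuron change (-0.020 to 2.67 with a part left out) and in the species difference (-1.97 to 0.75). DESeq2 size factors kept the HOX counts within 1.5 times, but moved the split of all genes in the COL1A2-positive comparison from 991 higher and 1171 lower to 1217 and 915. With log2(CPM + 1) weights the mean paralog number differed between species by 0.68, and motor neurons from progenitors by 0.16 in human and 0.020 in mouse. In mouse that last shift was 0.24 with thinned gates and 0.31 without HOXC4, HOXC5 and HOXD4. Without HOXB9 the species difference in the share of paralogs 9 to 13 was 7.13 percentage points, against 25.2 with it; both of these exclusions were chosen after seeing the data. At least 8-fold between mouse files were 5 genes. The cause of these changes was not tested. Depth limits the genes of paralogs 10 to 13 and the mouse HOXC6, HOXC8 and HOXC9 values, which rest on few UMIs in replicate 1.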
